A study of Homo sapiens with 6 samples.

Results

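CC chemokines are small secreted proteins that attract monocytes, lymphocytes and other leucocytes. They were examined here as 10 genes: CCL2, CCL3, CCL4, CCL5, CCL7, CCL8, CCL20, CCL26 and CCL28, and CX3CL1, the only chemokine of the CX3C class. The 10 were taken by name from 27738 genes of the authors' deposited table, each by the RefSeq transcript accession with the highest base mean, which is the mean of size-factor-normalized reads over all libraries. The samples were 6 RNA sequencing libraries of U87, an established human glioblastoma line, 3 of cells labelled EGFR+vIII and 3 of cells labelled EGFR+vIII TLR2 KO. EGFR stands for the receptor of epidermal growth factor and vIII for a deletion mutant of it that signals without ligand. TLR2 is an innate immune receptor for bacterial lipoproteins, and KO stands for knockout. Both groups carried EGFR+vIII, so the comparison is of TLR2 loss on that background. The labels do not say how the knockout was made, whether it is 1 clone or a pool, or whether each library had its own culture. The p-values therefore measure only how these libraries vary, and that variation may be technical.

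CC chemokines bear a pair of adjacent cysteines near the amino end and bind receptors named CCR on the target cell. Their genes are switched on by NF-kB, AP-1 and interferon signalling in many cell types, and the proteins are held on glycosaminoglycans of the cell surface and trimmed by proteases. CCL2, CCL7 and CCL8, also called monocyte chemotactic proteins, bring in monocytes mainly through CCR2. In glioblastoma, CCL2 and its relatives are known as attractants of tumour-associated macrophages and microglia.

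Of the 10 genes, 4 were listed above 0 in the authors' deposited table (CCL2, CCL7, CCL8 and CCL26), and these 4 were tested. CCL2, CCL7 and CCL8, which lie in 1 cluster on chromosome 17, were called higher in the knockout, and none was called lower. CCL26 was not called. The share of all 10303 tested accessions called higher in the authors' deposited table was 11.6%, and the share called lower was 11.9%. The other 6 members were listed at 0 and have no fold change. A call means an adjusted p under 0.05 in the authors' deposited table, from DESeq2's Wald test with Benjamini-Hochberg adjustment. The 3 calls are sensitive to the null: none was kept at a null of a change of at most 1.5-fold, or after dividing every Wald score by the spread of the middle scores (unadjusted p under 0.05 for 1 and 2 members).

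The table gives no value per library, but the reads of each library could be recovered for the 4 tested members. A base mean averages whole reads over the libraries, each divided by its library's size factor. For each of the 4 genes 1 set of 6 read numbers gave the deposited base mean, fold change and standard error (SE) together. For CCL2 and CCL26, 27652 and 12780 sets gave the base mean alone. The set kept for each matched the SE within 1e-05, and the next best missed it by 0.000204 for CCL2 and by only 2.27e-05 for CCL26, whose reads are the least firmly fixed. The same recovery gave 1 solution for 4168 of 4237 tested accessions with a base mean under 25 (98.4%). Libraries are tied to a side of the comparison but not to a replicate number, and are listed below by falling size factor within each group (1.07, 1.05 and 1.02 for EGFR+vIII, 1.05, 0.956 and 0.928 for the knockout). The base means sum to 11240272 normalized reads, the average number assigned per library. The knockout side is the group that the authors' table names first. This order could not be checked from TLR2, whose 8 accessions are all listed at 0, and if it were the opposite every direction here would reverse.

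CCL2 (chromosome 17, 34255285 to 34257203, GRCh38), the main monocyte attractant, had 55, 47 and 72 reads in the EGFR+vIII libraries and 124, 108 and 105 reads in the knockout libraries. All 3 knockout libraries lay above all 3 EGFR+vIII libraries, and they lay close to each other. Normalized reads were 55.6 ± 13.2 (SD, n = 3) in EGFR+vIII and 115 ± 2.78 (SD, n = 3) in the knockout, a ratio of 2.06. The log2 fold change of CCL2 in the authors' deposited table was 0.92 (SE 0.25, adjusted p = 0.00179 by DESeq2). In bulk RNA, more cells that make a transcript and more of it per cell cannot be told apart.

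CCL8 (chromosome 17, 34319435 to 34321402), a relative that also binds CCR1, had 11, 7 and 0 reads in the EGFR+vIII libraries and 25, 42 and 34 reads in the knockout libraries. The lowest knockout library was again above the highest EGFR+vIII library. Normalized reads were 5.66 ± 5.23 (SD, n = 3) and 34.8 ± 10.2 (SD, n = 3), a ratio of 6.15. This ratio rests on few EGFR+vIII reads: it was 10.4 without the library of 11 reads and 4.10 without the library of 0. The log2 fold change of CCL8 in the authors' deposited table was 1.40 (SE 0.38, adjusted p = 0.00161 by DESeq2), a 2.64-fold rise.

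CCL7 (chromosome 17, 34270221 to 34272242), an attractant of monocytes and eosinophils, had 0 reads in each of the 3 EGFR+vIII libraries and 6, 6 and 18 reads in the knockout libraries. Every knockout library held reads and no EGFR+vIII library did, with 1 knockout library holding more than the other two together. Normalized reads of the knockout were 10.5 ± 7.75 (SD, n = 3). Against a floor of 3 reads over the EGFR+vIII group, CCL7 was at least 10.95-fold higher in the knockout, or at least 6.27-fold without the library of 18 reads and at least 7.23-fold to 7.38-fold without any 1 EGFR+vIII library. The floor covers counting error only. The log2 fold change of CCL7 in the authors' deposited table was 1.02 (SE 0.34, adjusted p = 0.0146 by DESeq2), a 2.03-fold rise. From a list of keratinocyte markers added after values were seen, KRT5 and KRT14 also had 0 reads in all EGFR+vIII libraries. They had 12 to 23 in each knockout library. Other markers of that list, such as KRT17 and EPCAM, had reads in every library and were not called. The part of these markers in the CCL7 and CCL8 results was not tested.

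CCL26 (chromosome 7, 75769524 to 75791597), eotaxin-3, an attractant of eosinophils through CCR3, had 80, 107 and 86 reads in the EGFR+vIII libraries and 75, 43 and 59 reads in the knockout libraries. After normalization the highest knockout library (71.3) was just below the lowest EGFR+vIII library (75.0). The means were 86.97 ± 13.7 (SD, n = 3) and 59.97 ± 13.5 (SD, n = 3), a log2 ratio of -0.54. The log2 fold change of CCL26 in the authors' deposited table was -0.46 (SE 0.27, adjusted p = 0.236 by DESeq2). The 95% interval of that change ran from -0.98 to 0.06 and so included 0.

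**Figure D1:**
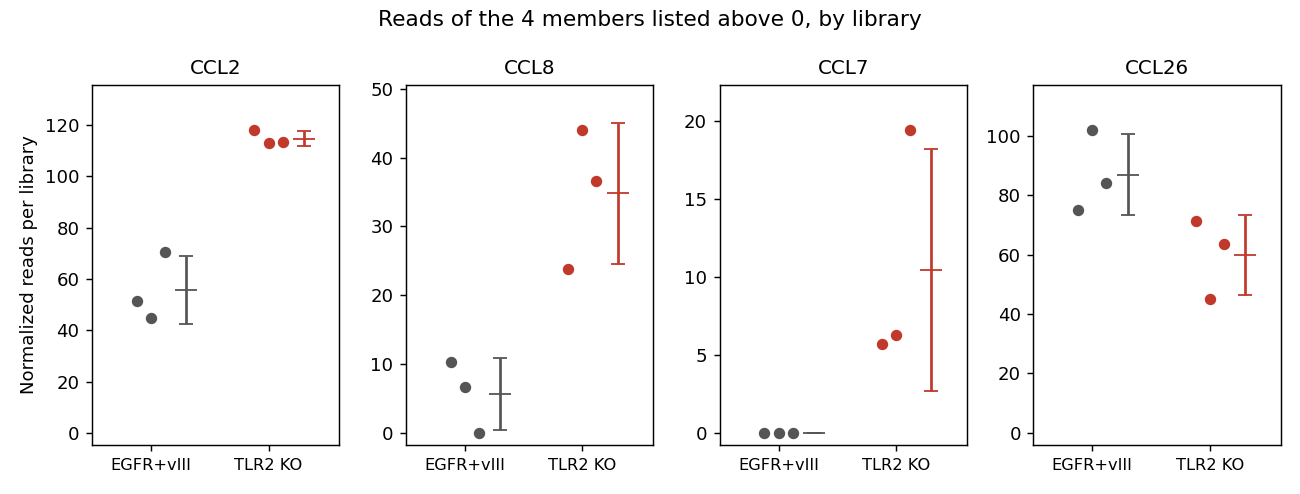
Normalized reads of CCL2, CCL8, CCL7 and CCL26 (vertical axes, linear and different for each gene) in the 3 EGFR+vIII libraries (grey) and the 3 TLR2 knockout libraries (red); points are libraries and bars are the mean with its SD. The groups do not overlap in any of the 4 genes, CCL7 is at 0 in all EGFR+vIII libraries, and CCL26 runs the opposite way.

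In each of the 4 genes the libraries of the groups did not overlap. An exact two-sided permutation test of 3 against 3 libraries gave p = 0.1 for each, the smallest p this design allows. Groups also failed to overlap, in either direction, in 21.4% of the 4168 accessions with a base mean under 25 whose reads were recovered, a range that holds CCL7 and CCL8 but not CCL2 and CCL26.

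The deposited fold changes lay closer to 0 than the ratios of reads, most so for the genes with fewest reads. The log2 ratio of reads was 1.05 for CCL2 and -0.54 for CCL26, near the 0.92 and -0.46 of the authors' deposited table. For CCL8 it was 2.62, against 1.40 in the authors' deposited table, and for CCL7 it was at least 3.45, against 1.02. For CCL7 the base mean alone fixed the reads. For the other 3 genes the recovery assumed a fit that draws fold changes towards 0, so their gap is in part built in. The order of CCL7 and CCL8 by reads is not settled: without the EGFR+vIII library of 11 CCL8 reads the bound of CCL7 was 7.23-fold and the ratio of CCL8 10.4.

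**Figure D2:**
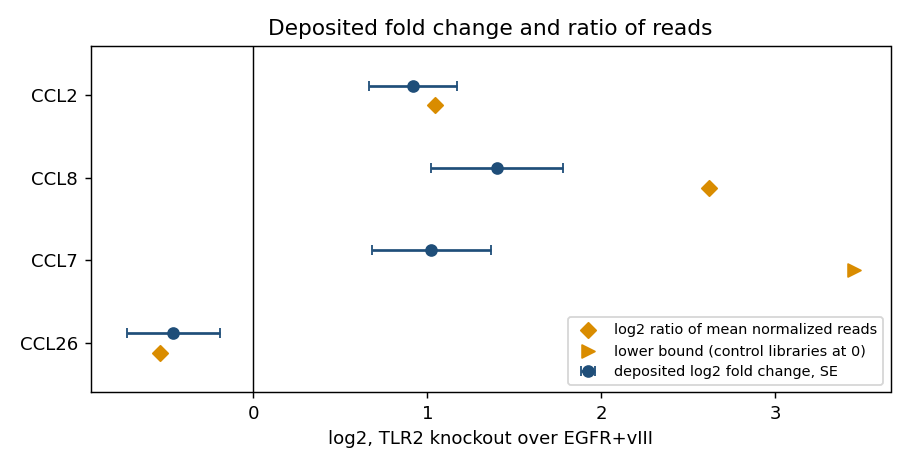
Log2 change of knockout over EGFR+vIII (horizontal axis) for 4 genes: the authors' deposited fold change with its SE (blue circles), the log2 ratio of mean normalized reads (orange diamonds), and for CCL7 a lower bound (orange arrowhead). The 2 measures lie close for CCL2 and CCL26 and far apart for CCL8 and CCL7.

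Per length of transcript, CCL2 and CCL26 were the most abundant members. Base means per kilobase of the matched GENCODE transcript were 115 for CCL2 (741 bases), 105 for CCL26 (703 bases), 16.04 for CCL8 (1261 bases) and 6.46 for CCL7 (810 bases). These are levels over all 6 libraries. Unbroken runs of identical bases between the paralogs were short, which does not measure how much sequence they share in all. The longest run of identical bases between the transcripts of CCL2 and CCL7 was 23, between CCL2 and CCL8 22, between CCL7 and CCL8 19, and between CCL8 and its neighbour CCL11 26.

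CCL2, CCL7 and CCL8 are 3 of 6 CC chemokine genes within 108 kb of chromosome 17, in the order CCL2, CCL7, CCL11, CCL8, CCL13, CCL1. All 6 have 1 accession each. CCL11, an eosinophil attractant that lies between CCL7 and CCL8, was listed at 0 in the authors' deposited table, as were CCL13 and CCL1. The nearest tested genes outside the cluster were the myosin gene MYO1D, 1378 kb before it, and ZNF830, 598 kb after it. By the authors' deposited table, MYO1D fell by 1.68 (SE 0.18) in log2 units, and ZNF830 was not called (0.54, SE 0.35, adjusted p = 0.306 by DESeq2). The median log2 fold change of the 45 tested genes within 5 Mb of CCL2 was 0.14. Relative to the median of its own neighbours within that distance, each of CCL2 (0.78), CCL7 (0.88) and CCL8 (1.25) was still called. Beside CCL26, HIP1, 30.6 kb before it, was not called (0.07, SE 0.36), and MDH2, 257 kb after it, rose by 0.83 (SE 0.24), by the authors' deposited table.

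**Figure D3:**
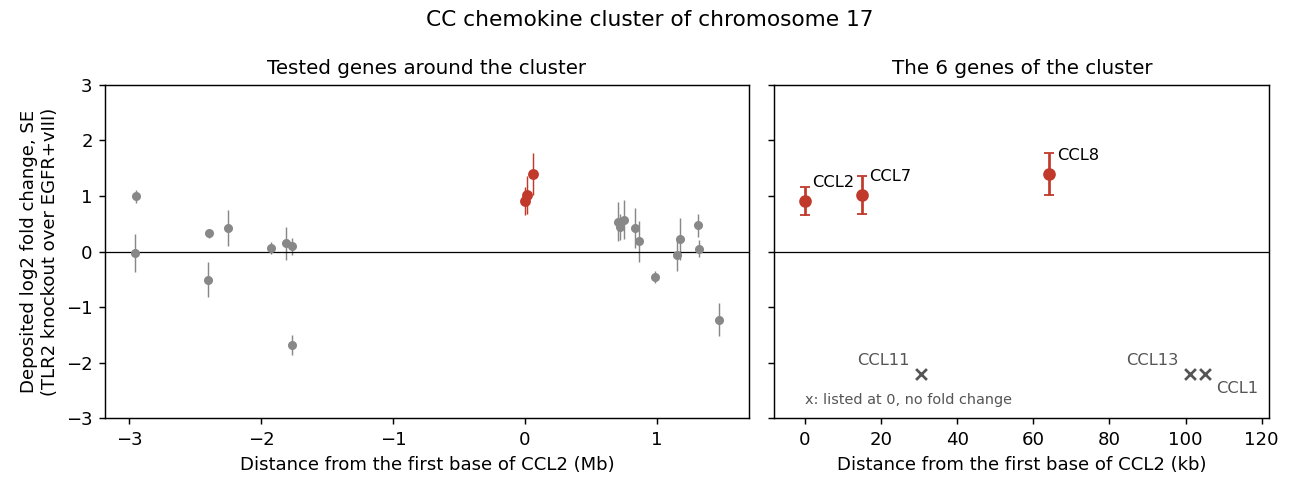
Deposited log2 fold change with its SE (vertical axis) against distance from the first base of CCL2, for tested genes within 3 Mb (left) and for the 6 cluster genes (right); crosses mark genes listed at 0, which have no fold change. CCL2, CCL7 and CCL8 (red) lie between 0.92 and 1.40, and CCL11, CCL13 and CCL1 are listed at 0.

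The stretches just before the transcription starts of CCL7, CCL8 and the neighbour CCL13, listed at 0, are shown because the first 2 were called higher and the third was listed at 0, while all 3 hold the same TATA box letters. Each line gives the 100 bases before the start, 5′ to 3′ on the plus strand, from RefSeq (GRCh38.p14), with the TATA box in capitals.
CCL7, chr17:34270121-34270220: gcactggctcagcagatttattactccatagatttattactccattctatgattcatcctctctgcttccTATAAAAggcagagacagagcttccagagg
CCL8, chr17:34319335-34319434: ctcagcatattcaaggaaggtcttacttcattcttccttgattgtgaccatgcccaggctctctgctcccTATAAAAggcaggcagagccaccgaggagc
CCL13, chr17:34356380-34356479: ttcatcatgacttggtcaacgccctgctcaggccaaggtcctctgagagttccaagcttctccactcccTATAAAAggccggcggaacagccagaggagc
The box TATAAAA (plus strand) begins 30 bases before the start in CCL7 and CCL8 and 31 in CCL13. It is found in the 250 bases before 2.56% of 35116 RefSeq starts. CCL7 and CCL8 share the 14-base run ccTATAAAAggcag there, and CCL8 and CCL13 share the 15-base run ctcccTATAAAAggc. An AP-1 motif was searched on both strands in the loose form TGANTCA, with any base in the middle (6.57% of starts). In the 250 bases, CCL7 holds 1 match, tgattca, 51 bases before its start, and CCL8 and CCL13 hold none. A search on both strands for an NF-kB motif, held by 5.07% of starts, and an interferon response motif, held by 3.02%, found neither in these 3 windows. CCL20, listed at 0, has 2 overlapping matches to the NF-kB motif. RefSeq windows were matched for 6 of the 10 members, and CCL2 was not among them, so its promoter was not searched. A match of letters is no evidence of binding.

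The 6 members listed at 0 were CCL3 and CCL4, macrophage inflammatory proteins, CCL5, which attracts T cells, CCL20, the ligand of CCR6, CCL28, a mucosal ligand of CCR10, and CX3CL1, a membrane-bound ligand of CX3CR1. A listing at 0 does not show absence. CCL5, CCL20 and CX3CL1 each have 2 accessions and CCL28 has 4, and of 8147 coding genes with 2 to 4 accessions, the authors' deposited table lists 3697 at 0 (45.4%), against 2380 of 7927 with 1 accession (30.02%). CCL3 and CCL4 have 1 accession each, but near-identical copies (CCL3L1, CCL3L3, CCL4L1 and CCL4L2, all listed at 0) with which reads would be shared. A listing at 0 means that no read was counted. Counting error alone still leaves room for an expected count of up to 3 reads over the 6 libraries, of 67441633 normalized reads in all.

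Of the 19 other CC genes of the human family in the table, 17 were listed at 0 and 2 were above 0 without a test. CCL27, a skin chemokine, had 0, 0 and 3 reads in EGFR+vIII and 1, 2 and 0 reads in the knockout, and CCL24, eotaxin-2 and the neighbour of CCL26, had 1 read in 1 knockout library. Over the whole family, all 6 genes with reads were among the 19 with 1 accession, and all 10 genes with several accessions were at 0.

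**Figure D4:**
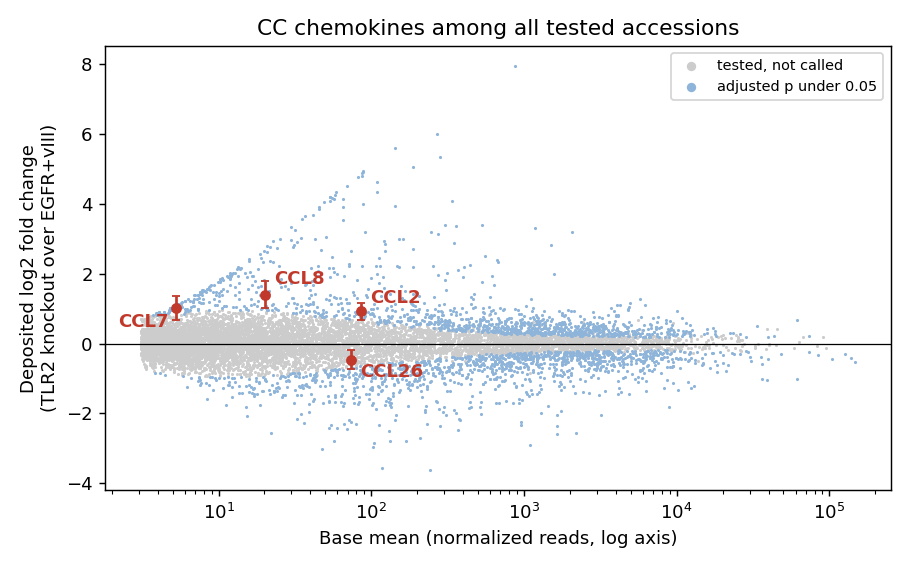
Deposited log2 fold change (vertical axis) against base mean (horizontal log axis) for all 10303 tested accessions, called ones in blue and the 4 tested CC chemokines in red with their SE. CCL7 lies at the low end of the tested range, where deposited fold changes are small, and CCL2 and CCL26 lie near the middle.

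Receptors of these chemokines were mostly without usable reads: of 15 CC and CX3C receptors and decoys, 9 were listed at 0 and 4 were tested. Of the 9 at 0, 8 have several accessions, and such a listing does not show absence. Of the 4 tested, 0 were called higher and 1 lower by the authors' deposited table, against 11.6% higher and 11.9% lower over all tested accessions. CCR1, a receptor of CCL7 and CCL8, had a base mean of 1541 and fell by 0.58 in log2 units (SE 0.09, adjusted p = 4.6e-10 by DESeq2, from the authors' deposited table). CCR2, the main receptor of CCL2, has 2 accessions and was listed at 0. The decoy receptor ACKR2, which clears CC chemokines, had 14, 3 and 3 reads in EGFR+vIII and 1, 0 and 0 in the knockout, with an adjusted p of 0.145 by DESeq2. CCRL2, which binds chemerin, was not called either (18, 7 and 1 reads against 16, 17 and 23).

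In the NF-kB list of inducers, subunits and feedback genes, 7 of 11 tested members were higher and 0 lower by the authors' deposited table, with a median log2 fold change of 0.68 against 0.02 over all tested accessions, of which 11.6% were called higher. At the null of a change of at most 1.5-fold 2 of the 7 kept the call (BIRC3 and MAP3K14), and with scaled Wald scores 3 did (these and NFKBIA). BIRC3, an apoptosis inhibitor and NF-kB target, rose by 3.002 (SE 0.23) and MAP3K14, the NF-kB-inducing kinase, by 1.41 (SE 0.13), in log2 units of the authors' deposited table. NFKBIA, the inhibitor that NF-kB induces, rose by 0.83 (SE 0.09), TRAF2, an adaptor of TNF receptors, by 0.69 (SE 0.15), the subunit RELB by 0.68 (SE 0.20) and the coactivator BCL3 by 0.50 (SE 0.11) by the authors' deposited table. NFKBIZ, an inducible co-regulator, had 10, 9 and 6 reads in EGFR+vIII and 20, 29 and 31 in the knockout, and rose by 1.08 (SE 0.37, adjusted p = 0.019 by DESeq2) by the authors' deposited table. NFKBIE (0.33, SE 0.13, adjusted p = 0.0556 by DESeq2) and NFKBIB (0.34, SE 0.20) were not called in the authors' deposited table. RELA, REL, IKBKB, TNFAIP3 and TRAF1 were listed at 0, each with several accessions.

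Interferon regulatory factors and STATs were mixed: of 9 tested, 2 were higher and 1 lower by the authors' deposited table, with a median of -0.09. Among all tested accessions 11.6% were called higher and 11.9% lower. IRF2, a regulator of interferon-responsive genes, rose by 0.35 (SE 0.12), and the receptor chain IFNAR1 fell by 0.41 (SE 0.07), in log2 units of the authors' deposited table. IRF9 (0.31, SE 0.14), STAT5B (-0.09, SE 0.11) and TYK2 (-0.23, SE 0.10) were not called in the authors' deposited table.

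Among 11 tested cytokines and receptors that can induce CC chemokines, 3 were higher and 2 lower by the authors' deposited table, with a median of 0.07. The shares over all tested accessions were 11.6% higher and 11.9% lower. TNFRSF1B, which binds tumour necrosis factor, rose by 2.33 log2 units (SE 0.12) by the authors' deposited table. IL13RA2, the decoy receptor of interleukin-13, rose by 1.90 (SE 0.15), and IL13RA1, its signalling chain, fell by 0.43 (SE 0.08) by the authors' deposited table. Interleukin-13 is known as an inducer of CCL26, which was not called, and a link to these receptors was not tested. CSF2, a myeloid growth factor, had 12, 1 and 7 reads in EGFR+vIII and 37, 23 and 43 in the knockout, and rose by 1.39 (SE 0.38) by the authors' deposited table. OSMR, the oncostatin M receptor, fell by 1.01 (SE 0.29) by the authors' deposited table. IL1B, an inducer at a base mean of 4596, and IL1A were not called (log2 fold changes 0.07, SE 0.08, and 0.41, SE 0.26, by the authors' deposited table).

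Proteases and carriers of chemokines changed in both directions. Of 9 tested proteases, 2 were higher and 3 lower by the authors' deposited table, with a median of -0.27. Over all tested accessions, 11.6% were called higher and 11.9% lower. DPP4, which trims the amino end of many chemokines, fell by 0.59 (SE 0.09) in log2 units of the authors' deposited table. The matrix proteases MMP14 and MMP2 fell by 1.10 (SE 0.08) and 1.06 (SE 0.24). MMP3 rose by 1.01 (SE 0.10) and ADAM17, which can release CX3CL1 from the membrane, by 0.28 (SE 0.08) by the authors' deposited table. ADAM10 (-0.49, SE 0.21) and CTSS (0.10, SE 0.17) were not called in the authors' deposited table. Of 10 tested genes of glycosaminoglycan carriers, 2 were higher and 4 lower by the authors' deposited table, with a median of 0.02. The proteoglycan SDC2 fell by 1.47 (SE 0.09), CSPG4 by 1.42 (SE 0.10), GPC1 by 1.02 (SE 0.09) and GPC6 by 0.46 (SE 0.09), while SDC3 rose by 0.99 (SE 0.25) and SDC4 by 0.65 (SE 0.08), in log2 units of the authors' deposited table. The heparan sulphate enzymes EXT1 (0.05, SE 0.09) and HS6ST1 (0.10, SE 0.21) were not called in the authors' deposited table.

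**Figure D5:**
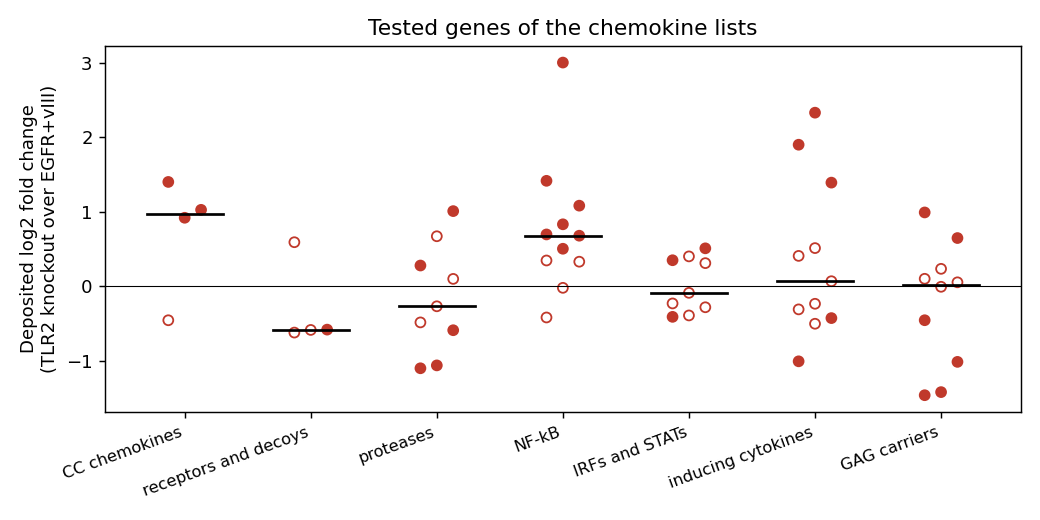
Deposited log2 fold change (vertical axis) of the tested genes of each list; filled circles have an adjusted p under 0.05, open circles do not, and black bars are medians. The NF-kB list has 7 filled circles above 0 and none below, while the lists of proteases and of glycosaminoglycan (GAG) carriers have filled circles on both sides.

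Markers of other cells that make CC chemokines were examined in the same table. Of 16 leucocyte markers, 10, PTPRC, CD14, CSF1R and SPI1 among them, were listed at 0, each with several accessions, and 0 of 3 tested were called in either direction. The summed normalized reads of all 16 ranged from 53.5 to 71.3 in the EGFR+vIII libraries and from 51.3 to 60.4 in the knockout libraries and overlapped. CD68 made up most of that sum, with 41, 63 and 69 reads in EGFR+vIII and 22, 36 and 29 in the knockout. The sum therefore mainly follows CD68, which was not called (unadjusted p = 0.0325, adjusted p = 0.113, both by DESeq2). LYZ had 7, 3 and 0 reads against 16, 1 and 15, and FCER1G had 8, 3 and 4 against 6, 10 and 9. CD3E had 0, 0 and 0 reads in EGFR+vIII and 10, 2 and 3 reads in the knockout and was not tested. Of 5 endothelium markers, 3 were tested and 0 called at base means of 556 (KDR), 159 (PECAM1) and 13.5 (VWF) in the authors' deposited table. Of these, 1 (PECAM1) had an unadjusted p under 0.05 by DESeq2. Markers of the mesenchymal U87 line were abundant, with a base mean of 126476 for VIM in the authors' deposited table, while GFAP, with 4 accessions, was listed at 0. Of 11 tested line markers, CHI3L1, NES and S100A6 were higher and VIM, COL1A2, TGFBI and SOX2 lower. Calls over all tested accessions were 11.6% higher and 11.9% lower. Markers of keratinocytes, 20 genes, were a list added after values were seen. Of these, 9 were tested, with 5 called higher (11.6% over all tested accessions) and 0 lower. KRT16, KRT17, EPCAM and LAMB3 were not called, and EPCAM (-0.22, SE 0.36) and LAMB3 (-0.27, SE 0.31) had negative log2 fold changes. KRT6B, DSC3, IVL, CDH1 and PKP1 were at 0. KRT5 had 0, 0 and 0 reads in EGFR+vIII and 17, 23 and 20 in the knockout, and KRT14 had 0, 0 and 0 against 14, 12 and 15. KRT10 and KRT15, the most abundant of the list by the authors' deposited table (base means 1105 and 238), had log2 fold changes of 0.27 (SE 0.10) and 0.61 (SE 0.21). Leaving out these 2, whose reads were not recovered, the list summed to 83.8 to 129 normalized reads in EGFR+vIII and 146 to 223 in the knockout. The part of these other markers in the chemokine results was not tested.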

How the data were processed

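The authors deposited 1 table of their own comparison, with 1 line per RefSeq accession and nothing per library. The submitters' processing notes name STAR, DESeq2 and hg38 but no version. Neither the counter nor the annotation release nor the read length is given in the sources used here. Per the file headers, the authors deposited a base mean (a signal, the mean of normalized counts), a log2 fold change with its SE, a Wald score, and a p-value with its adjusted p.

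The 67933 accessions were matched to symbols with a RefSeq table of GRCh38.p14, the build of hg38 (98.8% matched). The deposited adjusted p was used because the table does not hold counts per library, for which another test had been foreseen. A missing adjusted p was kept missing. The largest SE of the authors' deposited table is 0.38.

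Size factors were read from the base means of accessions with few reads. Reads were then solved as whole numbers that match the base mean and, within 1e-05, the SE of a negative binomial fit with a normal prior of SD 0.76 (log2 scale), a lowest fitted mean of 0.5 and a highest dispersion of 10, a fit that also gives the deposited fold change. These are settings assumed for the authors' DESeq2 fit; the prior was set from the SE of accessions with 1 read. The procedure was tested on simulated data. Python 3.11.15, scipy 1.17.1 and GENCODE 29 transcripts were used.

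The members, lists and tests were chosen with earlier results of these data known. Named genes were all members, the other CC genes, nearest tested neighbours and, from each list, every called gene and those with a base mean of at least 100. Some genes of these lists are counted but not reported here by name.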

Additional observations from a re-analysis of the deposited data

How the results depend on the processing

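The 3 calls among the members stayed at 3 with no filter on low base means and relative to genes within 5 Mb. Taking all tested accessions of the members could not change them, because each tested member has 1 accession. The calls were 2 at an adjusted p under 0.01, where CCL7 was lost (log2 fold change 1.02, adjusted p = 0.0146 by DESeq2). They were 0 at a null of a change of at most 1.5-fold and 0 with Wald scores scaled by their central spread. In both, CCL2 (0.92), CCL7 (1.02) and CCL8 (1.40) lost the call, with adjusted p of 1, 1 and 0.276 at the first and 0.259, 0.468 and 0.251 at the second, from the deposited DESeq2 values. CCL26 was not called in any of these 5 settings (adjusted p 0.148 to 1). With a base mean of at least 100 no member remained, so that setting gave no value. In the lists of receptors, pathways and markers 34 of 71 tested genes were called, against 23.5% of all tested accessions. These shares are not at matched base means, nor are the shares set beside each single list. Of the 71 genes, 45 had a base mean of at least 100, while the median over all tested accessions was 49.3. Whether the lists differ from other genes of like base mean was not tested. Calls in these lists were 14 at the 1.5-fold null, 22 with scaled scores and 31 to 33 otherwise, and no listed call changed sign. The number tested was 71, except for 95 with no filter and 45 at a base mean of at least 100. Shares of all accessions called in these settings are not given, so the counts show only how the list calls hold.

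Leaving out each library in turn, chosen after the data were seen, gave log2 ratios of reads of 0.91 to 1.25 for CCL2, 2.03 to 3.38 for CCL8 and -0.68 to -0.37 for CCL26, and a lower bound of 2.65 to 3.75 for CCL7. No paired analysis was possible because the table holds no column per library and recovered reads carry no replicate number. DESeq2 and edgeR refits of all accessions were not run for the same reason. Depth limits CCL7 and CCL8 most, with 30 and 119 reads in all.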

Other observations

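CCL7 was one of many accessions with reads on the knockout side alone. Among the 4168 accessions with a base mean under 25 whose reads were recovered, 66 had 0 reads in all 3 EGFR+vIII libraries and at least 6 reads in each knockout library, while 3 (DLX5, DSG2-AS1 and SMILR, named after their values were seen) showed the reverse. The limit of 6 reads was not planned, and it equals the lowest CCL7 count in a knockout library. Genes of the first kind, also chosen after their values were seen, include S100A9, a neutrophil and epithelial alarmin (29, 22 and 28 knockout reads), PI3, the elastase inhibitor elafin (36, 28 and 29), the potassium channel KCNK5 (50, 22 and 38) and the endothelin receptor EDNRB (25, 11 and 14). DLX5, a homeobox factor, had 17, 20 and 16 reads in EGFR+vIII and 0 in each knockout library.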
